A study of Mus musculus with 32 samples.

Results

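The transcripts of the adult globin chains and of the red-cell heme enzyme Alas2 were followed in the hypothalamus of 32 male mice. The 5 genes, Hba-a1, Hba-a2, Hbb-bs, Hbb-bt and Alas2, were taken by symbol from the 55401 Ensembl gene IDs of the normalized count table, and all 5 were among the 19928 genes that passed the filter on low counts. They were chosen by measured values of these libraries: their levels were known to be higher on high-fat diet, to follow the age label and to move together. Their diet, age and covariation values are therefore a description. The genotype values are tested.

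All mice were males of the strain C57BL/6NTac. Gpr101 is an X-linked gene for an orphan G-protein-coupled receptor, so a male knockout carries no other copy. WT_CD held 7 wild-type littermates on control diet, KO_CD 8 Gpr101 knockout mice on control diet, WT_HFD 8 wild-type mice on high-fat diet and KO_HFD 9 knockout mice on high-fat diet. Every mouse ate chow to the age of 7 weeks, and the high-fat groups then received a diet with 60% of its energy as fat. The protocol gives death at 150 days, while the age labels give 149 days for 13 mice and 150 days for 19. Age was unevenly spread over the diets. On control diet 5 KO_CD and 6 WT_CD mice were labelled 149 days, against 3 and 1 labelled 150 days. On high-fat diet 1 KO_HFD and 1 WT_HFD mouse were labelled 149 days, against 8 and 7 labelled 150 days. Each library is labelled as a separate biological replicate. Whether the animals were perfused to clear blood from the brain is not given in the sources used here.

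Hemoglobin, the oxygen carrier of red cells, is a tetramer of alpha and beta chains that each hold a heme group. Mature red cells of mammals have no nucleus, and young red cells (reticulocytes) entering the blood still carry globin messenger RNA. Alas2 makes the first and rate-limiting step of heme synthesis in cells of the red lineage, while Alas1 serves other tissues. Globin transcripts have also been described in some neurons and glia. In whole tissue, fewer cells of a type and less RNA per cell cannot be told apart, and the blood held in vessels is part of the sample.

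The alpha genes lie on chromosome 11 and the beta genes on chromosome 7, each pair in tandem. On GRCm38 with the GENCODE vM21 annotation, Hba-a1 (ENSMUSG00000069919) spans chr11:32283511-32284465 and Hba-a2 (ENSMUSG00000069917) chr11:32296489-32297298, both on the plus strand and with 3 exons. Hbb-bs (ENSMUSG00000052305) spans chr7:103826534-103828096 and Hbb-bt (ENSMUSG00000073940) chr7:103812524-103813996, both on the minus strand and with 3 exons. Alas2 (ENSMUSG00000025270) spans chrX:150547375-150570638 on the plus strand and has 11 exons. All 5 are annotated as protein-coding.

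Within each pair the coding sequences are near copies, which bears on how reads could be divided between them. Over 429 coding bases, Hba-a1 and Hba-a2 differed at 1, C381T, counted from 1 at the first base of the start codon. Over 444 coding bases, Hbb-bs and Hbb-bt also differed at 1, C417T. The 51 coding bases around each difference are shown from the GRCm38 genome, in the direction of the gene, with the differing base in capitals. They lie at chr11:32284318-32284368 (Hba-a1, plus strand), chr11:32297135-32297185 (Hba-a2, plus strand), chr7:103826667-103826717 (Hbb-bs, minus strand) and chr7:103812658-103812708 (Hbb-bt, minus strand).
Hba-a1: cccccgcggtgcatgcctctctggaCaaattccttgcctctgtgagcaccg
Hba-a2: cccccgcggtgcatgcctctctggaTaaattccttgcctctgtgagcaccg
Hbb-bs: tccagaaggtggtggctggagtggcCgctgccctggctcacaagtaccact
Hbb-bt: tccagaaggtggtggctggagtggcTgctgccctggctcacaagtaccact

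The longest coding run shared without a difference was 380 bases for the alpha pair and 416 bases for the beta pair. Of all 150-base windows along the Hba-a1 transcript, 48.4% occurred unchanged in Hba-a2, and 65.7% of the Hba-a2 windows occurred in Hba-a1. For the beta pair the shares were 58.7% of the Hbb-bs windows and 50.7% of the Hbb-bt windows. Reads were sequenced as pairs of 150 bases. How the authors' counting treated a read that matches both copies is not given in the sources used here, so the division of reads within a pair is uncertain, while the sum over a pair depends on it less.

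The promoters were compared because the 5 genes moved together. The 130 bases before the RefSeq start (GRCm38.p6) are shown for 1 alpha gene, 1 beta gene and Alas2, in the direction of the gene. Capitals mark every match, on either strand, to CACCC (core letters associated with KLF factors), CCAAT (with NF-Y), GATAA (with GATA factors) and TATAA (the TATA box). The windows are chr11:32296362-32296491 (plus strand), chr7:103827929-103828058 (minus strand) and chrX:150547287-150547416 (plus strand).
Hba-a2: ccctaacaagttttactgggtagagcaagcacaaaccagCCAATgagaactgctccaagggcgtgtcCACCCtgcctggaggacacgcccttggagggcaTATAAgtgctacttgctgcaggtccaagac
Hbb-bs: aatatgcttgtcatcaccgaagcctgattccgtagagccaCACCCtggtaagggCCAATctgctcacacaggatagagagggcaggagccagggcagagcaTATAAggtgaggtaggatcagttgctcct
Alas2: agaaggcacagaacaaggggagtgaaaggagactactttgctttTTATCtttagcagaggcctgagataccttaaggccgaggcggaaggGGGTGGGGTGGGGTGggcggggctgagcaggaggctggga

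CACCC occurred in all 5 windows, against 33.7% of the 32851 windows of this length in the RefSeq promoter table. CCAAT and TATAA occurred in the 4 globin windows and not in that of Alas2, against 22.4% and 12.7% of all windows. GATAA occurred only in the Alas2 window, read as TTATC on the strand shown, against 11.4% of all windows. In Alas2 the 3 CACCC matches, read as GGGTG, follow each other with no gap. The alpha windows were identical over the 127 bases that could be aligned at an offset of 3 bases. The beta windows matched at 96 of 129 bases (74.4%). These matches describe letters in a window and are not measured sites. The GENCODE gene spans given above begin before these RefSeq starts, so all 5 windows overlap them. The windows of Hba-a1 and Hbb-bs lie wholly inside the span, and so do the CACCC matches of Alas2.

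The globin genes were abundant in every library. Normalized counts are reads divided by the authors' median-of-ratios size factor, so they compare 1 gene between libraries. The mean over 32 libraries was 6106 for Hba-a1, 3011 for Hba-a2, 6632 for Hbb-bs and 1887 for Hbb-bt, which ranked 772, 2111, 673 and 3659 by mean among all gene IDs. Alas2 was far lower, with a mean of 80.5 and rank 13856. Per kb of GENCODE transcript the mean levels were 10561 for Hbb-bs, 8736 for Hba-a1, 5435 for Hba-a2, 2684 for Hbb-bt and 39.5 for Alas2. That order held in 32 of 32 libraries for each pair of neighbours. The closest neighbours were Hbb-bs and Hba-a1, with a ratio per kb of 1.08 to 1.31 and a median of 1.21.

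The libraries held 25.3 to 34.2 M reads on genes, with a median of 27.7 M (M, mega). Gpr101 checked the genotype labels: the wild-type libraries held 2471 to 3472 Gpr101 reads each, the KO_CD libraries none and the KO_HFD libraries 1 read in all. A count of 0 in a library still allows an expected level of up to about 3 reads. Transcripts that define the hypothalamus were present in every library, among them Oxt (oxytocin) with a mean normalized count of 6078 and Hcrt (the orexin precursor) with 4323.

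The alpha globin Hba-a1 differed more between single mice than between genotypes. In WT_CD its normalized count had a lowest value of 3475, a median of 4601 and a highest of 5568. In KO_CD the lowest, median and highest values were 3063, 4592 and 6924. Of the 8 KO_CD mice, 5 lay within the WT_CD range, 1 below it and 2 above it. In WT_HFD the values ran from 4987 through a median of 6721 to 13728, and in KO_HFD from 4868 through 6851 to 12132. The fewest Hba-a1 reads in a library were 2932.

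On high-fat diet the Hba-a1 levels were higher and more spread, with both genotypes covering the same range. The group means were 4583 ± 620 (SD, n = 7) in WT_CD, 4883 ± 1175 (SD, n = 8) in KO_CD, 7537 ± 2936 (SD, n = 8) in WT_HFD and 7107 ± 2094 (SD, n = 9) in KO_HFD. In wild types 6 of 8 mice on high-fat diet lay above the highest mouse on control diet. In knockouts 4 of 9 did. The ratio of the group means was 1.64 in wild types and 1.46 in knockouts.

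Hba-a2, which encodes the same alpha chain family from the neighbouring gene, followed Hba-a1 at a lower level. Its group means were 2255 ± 304 (SD, n = 7) in WT_CD, 2406 ± 571 (SD, n = 8) in KO_CD, 3719 ± 1438 (SD, n = 8) in WT_HFD and 3508 ± 1037 (SD, n = 9) in KO_HFD. Over all libraries it ran from 1555 to 6755, with the lowest value in KO_CD replicate 4 and the highest in WT_HFD replicate 2, as for Hba-a1.

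**Figure D1:**
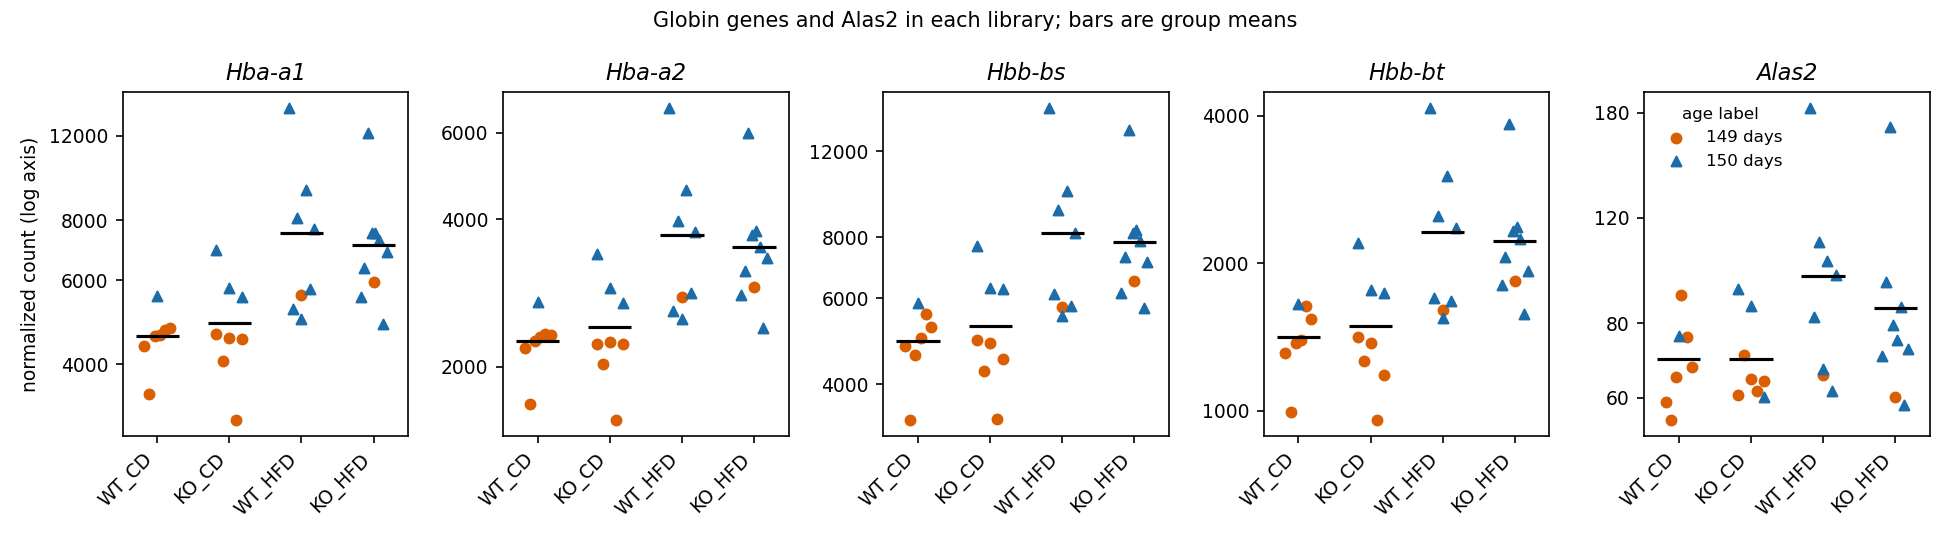
Normalized count of each of the 5 genes (log axis) in the 32 libraries by group, with 1 symbol per mouse, circles for 149 days, triangles for 150 days and bars for group means. The 4 globin panels have nearly the same shape, with WT_HFD replicate 2 and KO_HFD replicate 4 as the highest points, and the 3 KO_CD mice of 150 days lie above the 5 of 149 days in each globin panel.

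The beta globin Hbb-bs, the more abundant of the beta genes, showed the same layout. Its group means were 4918 ± 811 (SD, n = 7) in WT_CD, 5272 ± 1372 (SD, n = 8) in KO_CD, 8150 ± 3162 (SD, n = 8) in WT_HFD and 7825 ± 2232 (SD, n = 9) in KO_HFD. The lowest library held 3380 and the highest 14743. In wild types 5 of 8 mice on high-fat diet exceeded every mouse on control diet, and in knockouts 4 of 9.

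Hbb-bt, the less abundant of the beta genes, had group means of 1416 ± 227 (SD, n = 7) in WT_CD, 1487 ± 394 (SD, n = 8) in KO_CD, 2320 ± 909 (SD, n = 8) in WT_HFD and 2223 ± 665 (SD, n = 9) in KO_HFD. Its range over all libraries was 958 to 4153. The ratio of high-fat to control means was 1.64 in wild types and 1.49 in knockouts, against 1.66 and 1.48 for Hbb-bs.

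Alas2, the erythroid heme enzyme, varied less with diet than the globins. In WT_CD its lowest, median and highest values were 55.1, 67.5 and 89.1, and in KO_CD 60.1, 64.3 and 91.2. In WT_HFD they were 61.6, 89.2 and 183, and in KO_HFD 58.4, 74.9 and 170. The groups overlapped: 4 of 8 WT_HFD mice exceeded every WT_CD mouse, and 2 of 9 KO_HFD mice exceeded every KO_CD mouse. The ratio of high-fat to control means was 1.38 in wild types and 1.22 in knockouts.

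No genotype difference was detectable for the 5 genes. Averaged over diets, limma gave knockout against wild type log2 fold changes of 0.01 for Hba-a1, 0.01 for Hba-a2, 0.03 for Hbb-bs, 0.01 for Hbb-bt and -0.08 for Alas2, with standard errors of 0.13 to 0.14. As a fold, Hba-a1 was 1.01 with a 95% interval of 0.832 to 1.22, and Alas2 0.947 with an interval of 0.788 to 1.14. The adjusted p from limma over all tested genes was 0.970 for Alas2 and 0.992 to 0.998 for the globins. None of the 5 had an unadjusted p under 0.05. The share of all tested genes called at an adjusted p under 0.05 was 0.00502%, which is 1 gene.

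Within each diet the genotype values were as small against their error. On control diet the log2 fold changes were 0.07 for Hba-a1, 0.07 for Hba-a2, 0.08 for Hbb-bs, 0.04 for Hbb-bt and 0.002 for Alas2, with standard errors of 0.19 to 0.20. On high-fat diet they were -0.05, -0.05, -0.02 and -0.02 for the globins in the same order, and -0.16 for Alas2, with standard errors of 0.18 to 0.19. Of the 5 genes, 0 were called by limma in either diet, where again 0.00502% of tested genes were called, and limma-voom on the recovered reads also called 0.

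A difference in the diet response between knockouts and wild types was not detectable. The interaction term, knockout minus wild type, was -0.11 for Hba-a1, -0.12 for Hba-a2, -0.10 for Hbb-bs, -0.07 for Hbb-bt and -0.16 for Alas2, with standard errors of 0.26 to 0.28. For Hba-a1 the 95% interval of this difference was -0.66 to 0.43, so a sizeable difference in either direction was not excluded. The adjusted p from limma was 0.999 for each of the 5. The share of tested genes called was 0.0%, with 676 genes at an unadjusted p under 0.05, and limma-voom called none.

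Averaged over genotypes, the log2 difference between diets was 0.59 ± 0.13 (SE) for Hba-a1, 0.59 ± 0.13 for Hba-a2, 0.62 ± 0.14 for Hbb-bs, 0.61 ± 0.14 for Hbb-bt and 0.30 ± 0.13 for Alas2. As folds, the globins were 1.51 to 1.53 times as high on high-fat diet and Alas2 1.23 times. The 4 globins were among the 37 genes called higher by limma, and Alas2 was not. Of all tested genes, 0.336% were called in either direction and 0.186% higher on high-fat diet. Because this contrast was known when the genes were chosen, nothing is read from the count. The 4 globin calls lay close to the threshold: leaving out single libraries gave from 0 to 4 of them, and 15 of the 32 libraries each gave 0 when left out. These were KO_CD replicates 2, 3, 4 and 5, WT_CD replicates 1, 2, 3, 4 and 6, KO_HFD replicates 5, 6 and 7, and WT_HFD replicates 4, 6 and 8. Within wild types alone (0.0251% of genes called) and within knockouts alone (0.0351%), limma called 0 of the 5.

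The globin levels also followed the age label within the control diet. In every group the mice of 149 days also held the lowest numbers in the sample labels, in KO_CD 1 to 17 against 18 to 26. A step with age could therefore not be told apart from a step with that number. In KO_CD the Hba-a1 counts of the 5 mice of 149 days were 4639, 4065, 4545, 3063 and 4519, and those of the 3 mice of 150 days were 6924, 5766 and 5541. The age groups did not overlap for Hba-a1, Hba-a2, Hbb-bs or Hbb-bt. Mice of 149 days lay below those of 150 days without overlap at 2.14% of tested genes in KO_CD, and above them at 1.84%. The ratio of means, 150 over 149 days, was 1.46 for Hba-a1, 1.46 for Hba-a2, 1.54 for Hbb-bs and 1.53 for Hbb-bt.

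In WT_CD the 1 mouse of 150 days had the highest level of each of the 4 globins, with an Hba-a1 count of 5568 against 3475 to 4769 in the 6 mice of 149 days. That mouse was the highest of its group at 13.8% of tested genes. On high-fat diet the ages overlapped. The WT_HFD mouse of 149 days had an Hba-a1 count of 5591, above 2 of the 7 mice of 150 days, and the KO_HFD mouse of 149 days had 5940, above 2 of 8. Alas2 overlapped between the ages in all 4 groups. In KO_CD its counts were 60.6, 70.9, 64.6, 61.6 and 64.0 at 149 days and 91.2, 85.4 and 60.1 at 150 days.

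Across diet and age, the mice of 149 days on control diet stood below the rest, a pattern picked out after its values were seen. The sum of the 4 globin counts ran from 8976 to 14285 in these 11 mice. In the 4 control-diet mice of 150 days it ran from 15801 to 20192, and in the 2 high-fat mice of 149 days it was 15732 and 17205. In the 15 high-fat mice of 150 days it ran from 14554 to 39379. The 11 lowest sums of the 32 libraries were thus those of the control-diet mice of 149 days, from both genotypes. Hba-a1 and Hba-a2 were the only tested genes at which these 11 mice all lay below the other 21, 0.01% of tested genes. At Hbb-bs 1 of the other 21 mice and at Hbb-bt 3 lay at or below the highest of the 11, and at Alas2 14 did.

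**Figure D2:**
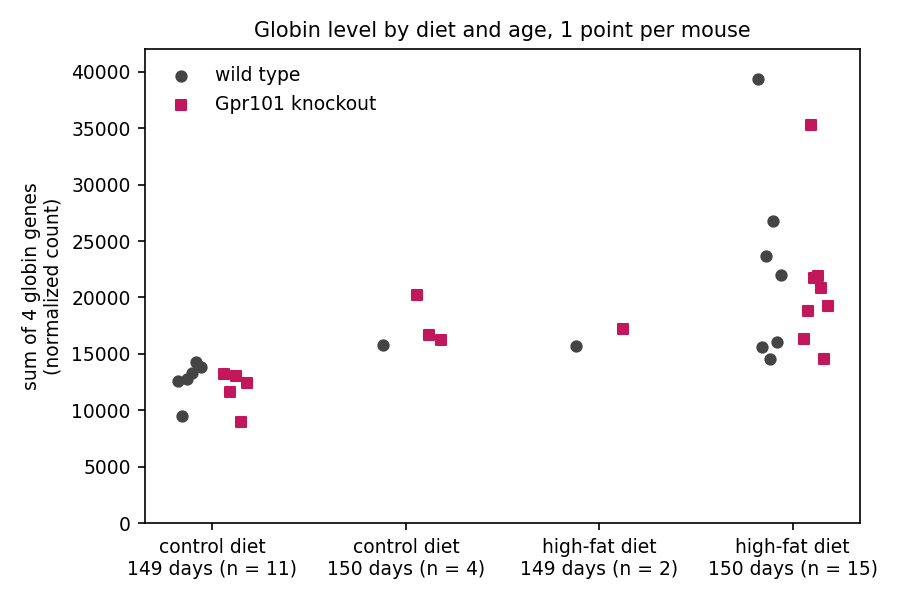
Sum of the normalized counts of Hba-a1, Hba-a2, Hbb-bs and Hbb-bt in each mouse, by diet and age label, with circles for wild types and squares for knockouts. The 11 control-diet mice of 149 days lie between 8976 and 14285, below all other mice, and the 15 high-fat mice of 150 days spread up to 39379.

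Diet and age could be separated only in part, since 11 of the 15 control-diet mice were labelled 149 days and 15 of the 17 high-fat mice 150 days. With age as a covariate, the log2 diet difference averaged over genotypes was 0.33 ± 0.16 (SE) for Hba-a1, 0.33 ± 0.16 for Hba-a2, 0.33 ± 0.16 for Hbb-bs and 0.32 ± 0.16 for Hbb-bt, and 0.09 ± 0.16 for Alas2. None of the 5 was called by limma in that fit, where 0.0602% of tested genes were. Among the 19 mice of 150 days alone the values were 0.31 ± 0.27 for Hba-a1, 0.32 ± 0.27 for Hba-a2, 0.33 ± 0.26 for Hbb-bs, 0.34 ± 0.27 for Hbb-bt and 0.21 ± 0.28 for Alas2. The wild-type arm of this average rests on 1 control-diet mouse of 150 days. In knockouts alone, with 3 against 8 mice of 150 days, the values were 0.21 ± 0.29 for Hba-a1, 0.22 ± 0.29 for Hba-a2, 0.21 ± 0.28 for Hbb-bs, 0.22 ± 0.29 for Hbb-bt and 0.11 ± 0.30 for Alas2. The direction was the same in each fit, and the globin values were smaller than without age by over 1.5 times.

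The age difference within groups, fitted over all 32 mice, was 0.42 ± 0.16 (SE, log2) for Hba-a1, 0.42 ± 0.16 for Hba-a2, 0.46 ± 0.16 for Hbb-bs, 0.46 ± 0.17 for Hbb-bt and 0.34 ± 0.16 for Alas2. None of the 5 was called by limma, and 0.0% of tested genes were, with 1663 genes at an unadjusted p under 0.05. Within KO_CD, the only group with at least 2 mice of each age, the differences were 0.55 ± 0.16 for Hba-a1, 0.55 ± 0.15 for Hba-a2, 0.62 ± 0.14 for Hbb-bs, 0.62 ± 0.15 for Hbb-bt and 0.27 ± 0.17 for Alas2.

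**Figure D3:**
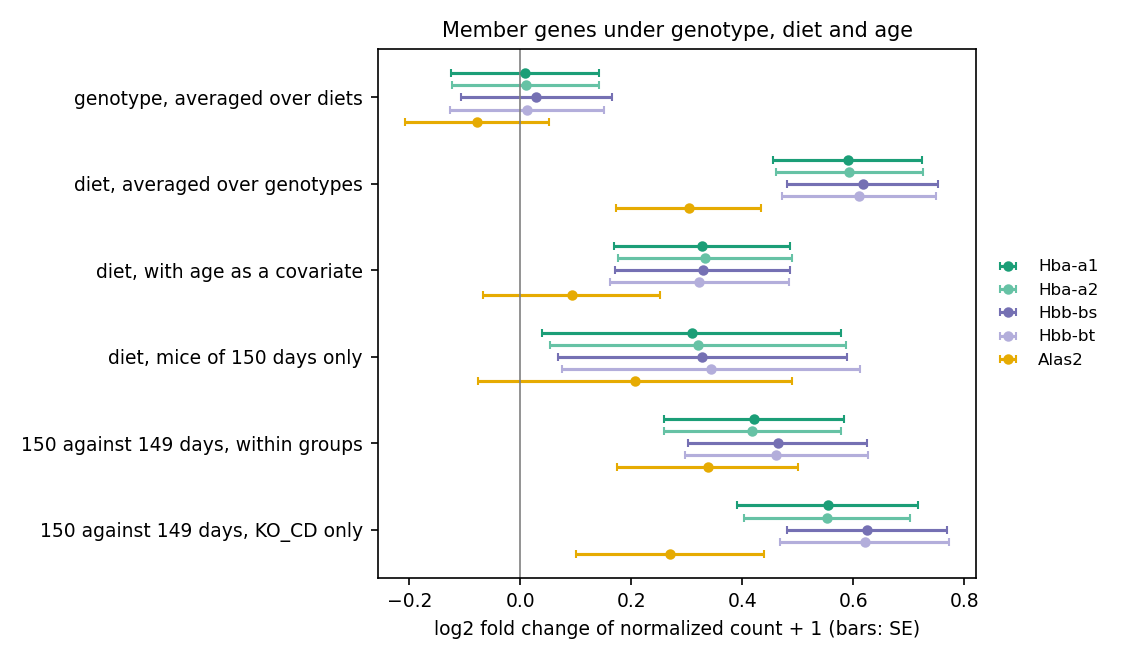
Log2 fold change of each of the 5 genes (x axis, bars are standard errors) for genotype, for diet without and with age as a covariate and in mice of 150 days, and for age. The genotype values lie near 0, and the globin diet values move from about 0.6 to about 0.3 once age is in the fit.

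Both libraries with the highest globin levels came from mice of 150 days on high-fat diet, 1 of each genotype. WT_HFD replicate 2 held normalized counts of 13728 for Hba-a1, 6755 for Hba-a2, 14743 for Hbb-bs, 4153 for Hbb-bt and 183 for Alas2. KO_HFD replicate 4 held 12132, 6004, 13297, 3853 and 170 in the same order. The next highest Hba-a1 count was 9244, in WT_HFD replicate 6. Their depths, 28.2 and 27.8 M reads on genes, were near the median. Without these 2 libraries, left out after their values were seen, the diet difference averaged over genotypes was 0.47 ± 0.11 (SE, log2) for Hba-a1 and 0.16 ± 0.09 for Alas2, and 3 of the 5 genes were called, in a fit that called 0.331% of tested genes. As above, nothing is read from this count.

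Within a library the 4 globins kept nearly fixed proportions. The ratio of Hba-a1 to Hba-a2 counts ran from 1.97 to 2.09 over the 32 libraries, with a median of 2.03. Its coefficient of variation was 1.35%, below the 2.35% that read counting alone would give if both genes were counted independently. The counts of this pair may therefore not be independent, as the treatment of reads that match both copies is not given. Whether the narrow ratio reflects that treatment was not tested. By comparison, Hba-a1 itself varied by 37.3% and Hba-a2 by 37.3%. Its mean was 2.03 in WT_CD, 2.03 in KO_CD, 2.02 in WT_HFD and 2.03 in KO_HFD.

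The beta genes were nearly as constant against each other. Hbb-bs to Hbb-bt ran from 3.31 to 3.80, with a median of 3.54 and a coefficient of variation of 3.12%, against 2.76% from counting. The alpha to beta ratio, summed over both genes of each pair, ran from 0.978 to 1.18 with a median of 1.07. Its coefficient of variation was 4.53%, above the 1.59% from counting. Its group means were 1.09 ± 0.07 (SD, n = 7) in WT_CD, 1.08 ± 0.05 (SD, n = 8) in KO_CD, 1.08 ± 0.05 (SD, n = 8) in WT_HFD and 1.05 ± 0.04 (SD, n = 9) in KO_HFD.

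Alas2 tracked the globins less closely. The globin sum per Alas2 count ran from 146 to 293, with a median of 216 and a coefficient of variation of 17.1%, against 11.6% from counting. Its mean was 196 ± 31.2 (SD, n = 15) on control diet and 240 ± 30.3 (SD, n = 17) on high-fat diet. A least squares line over the 32 libraries put Alas2 at 10.6 ± 6.2 (SE) normalized counts at a globin sum of 0, with 3.97 ± 0.33 more for each rise of the globin sum by a step of 1000. Without the 2 highest libraries that line started at 33.1 and rose by 2.51 per step, so its slope rested in part on those libraries.

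**Figure D4:**
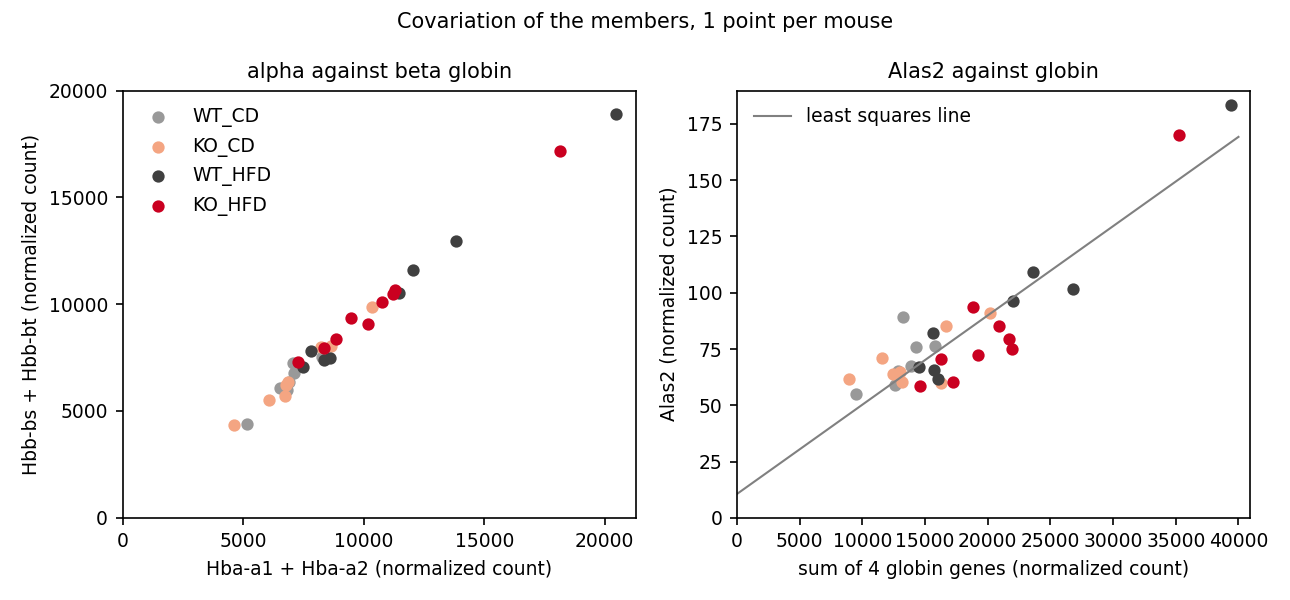
Left, summed beta against summed alpha globin normalized counts; right, Alas2 against the sum of the 4 globins, with 1 point per mouse, colours for groups and a least squares line. The alpha and beta points fall along 1 line from the lowest to the highest library, and Alas2 scatters more around its line.

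After group means were removed, Pearson's r between log2 levels over the 32 libraries was 0.999 for Hba-a1 with Hba-a2, 0.993 for Hbb-bs with Hbb-bt and 0.980 to 0.986 across the alpha and beta pairs. With Alas2 the globins gave 0.846 to 0.858. Without the 2 libraries of highest globin level the globins still gave 0.968 to 0.998 among themselves, and 0.720 to 0.756 with Alas2. These values describe libraries that share their depth and scaling with every gene in them, and reads shared within a pair bear on the within-pair values.

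No gene ranked here followed the globin mean as closely as Alas2 (r = 0.858). Tested genes with a predicted-gene name or a mean normalized count under 10 were not ranked. Among 15307 other tested genes with a mean normalized count of at least 10 and a symbol that is not a predicted-gene name, 0 reached an r of 0.7, 61 reached 0.5 and 42 lay at or below -0.5. The 12 most alike were Ddc (0.645), which makes dopamine and serotonin from their precursors, Psph (0.631), an enzyme of serine synthesis, Enpep (0.626), an aminopeptidase of pericytes and other cells, Cars2 (0.621), Tspan15 (0.615), Tnfsf9 (0.608), the Fc receptor Fcgr3 (0.607), the vesicular monoamine transporter Slc18a2 (0.603), Itgb5 (0.599), Uck1 (0.599), Fmnl2 (0.591) and Nhsl1 (0.590). Without the 2 highest libraries r fell to 0.366 for Ddc and 0.301 for Slc18a2, and to 0.431 to 0.512 for Cars2, Tspan15, Fcgr3, Itgb5, Fmnl2 and Nhsl1. It was 0.618 for Psph, 0.614 for Enpep, 0.632 for Tnfsf9 and 0.609 for Uck1, close to the values with them. How many of 15307 unrelated genes would reach such an r was not tested, so these genes are only a description. The genes least alike were Btn2a2 (-0.663), Slc11a2 (-0.619), an importer of iron, and Nudcd3 (-0.613). Without the 2 highest libraries these were -0.560 for Btn2a2, -0.498 for Slc11a2 and -0.691 for Nudcd3.

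**Figure D5:**
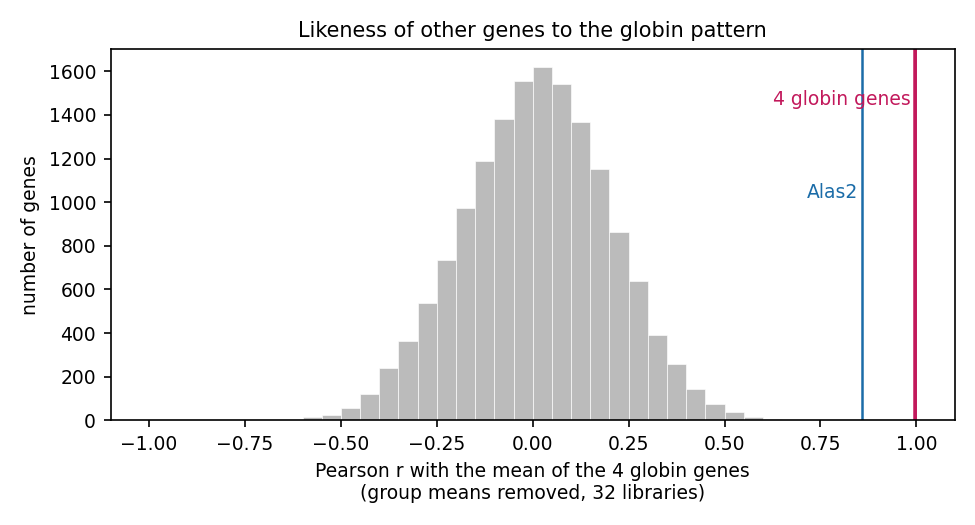
Number of genes by Pearson r with the mean log2 level of the 4 globins over 32 libraries, group means removed, with lines for the members. The other 15307 genes end below 0.7, Alas2 lies at 0.858 and the globins, which make up the mean, lie above 0.99.

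The embryonic globins and the other beta-like globin genes listed here were close to absent. Hbb-bh0, Hbb-bh1, Hbb-bh2 and Hbb-bh3 had 0 reads over all 32 libraries, Hba-x had 1 and Hbb-y 23. Globins of other cells were present: neuroglobin (Ngb) had a mean normalized count of 2037, cytoglobin (Cygb) 2584, and myoglobin (Mb) 17.9. The theta-like genes Hbq1a and Hbq1b had means of 39.5 and 10.2. None of these 5 tested genes was called by limma in any of the genotype, diet and age contrasts. For genotype on control diet 3 of the 5 had an unadjusted p under 0.05, against 821 of all 19928 tested genes. Their log2 values differed in sign, with 0.39 ± 0.19 (SE) for Hbq1a, -0.76 ± 0.26 for Hbq1b and -0.08 ± 0.04 for Ngb. On high-fat diet 1 of the 5 did, against 1026 of all tested genes. For Ngb the log2 diet difference was 0.01 ± 0.03 (SE) and for Cygb -0.01 ± 0.03.

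No other listed red-cell gene was called. Of 29 listed genes for the red-cell membrane and its regulators, 18 were tested and 0 were called by limma in any contrast. For diet averaged over genotypes 3 of 18 had an unadjusted p under 0.05, against 2208 of all 19928 tested genes. The median log2 difference of the 18 for that contrast was 0.0002, against -0.0008 over all tested genes. Sptb, the beta spectrin of red cells that neurons also make, had the highest mean at 4908 and a diet difference of -0.04 ± 0.03 (SE, log2). Bnip3l, which clears mitochondria from maturing red cells and acts in many other cells, had a mean of 3243 and a difference of 0.01 ± 0.02. Gypc, a glycophorin, and Ube2l6, a conjugating enzyme for ubiquitin and Isg15, had the smallest unadjusted p, with differences of 0.59 ± 0.20 and 0.21 ± 0.08. For age, Gypc gave -0.58, the opposite sign to the globins.

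The 11 listed genes that fell below the filter include some of the most specific to the red lineage: Slc4a1 (the anion exchanger band 3) and the regulators Gata1 and Klf1. Together they held 907 reads over the 32 libraries, 13 to 76 in each. Their summed normalized count had means of 24.7 ± 6.9 (SD, n = 7) in WT_CD, 24.9 ± 6.3 (SD, n = 8) in KO_CD, 32.9 ± 14.1 (SD, n = 8) in WT_HFD and 28.9 ± 16.5 (SD, n = 9) in KO_HFD. The 2 libraries with most globin did not hold the most of these transcripts but ranked high. WT_HFD replicate 2 held 36.5 and KO_HFD replicate 4 held 30.4, ranks 5 and 7 of 32. The other 30 libraries ran from 13.3 to 70.6 with a median of 25.03. WT_HFD replicates 6 and 4, ranks 3 and 4 by globin sum, held 38.4 and 23.8, ranks 3 and 21. The highest sums, 70.6 and 64.2, were those of KO_HFD replicate 2 and WT_HFD replicate 8. Their globin sums were 16305 and 21989, ranks 14 and 5. The relation of these low counts to the globins was not tested.

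Genes of the rest of the heme pathway were not called. All 15 listed genes of heme synthesis outside Alas2 were tested, and 0 were called by limma in any contrast. For diet averaged over genotypes 2 of 15 had an unadjusted p under 0.05, against 2208 of all 19928 tested genes. Fech, which inserts iron into heme, had a mean of 1609 and a diet difference of 0.00 ± 0.02 (SE, log2). Slc25a39, a mitochondrial carrier, had a mean of 1982 and a difference of -0.02 ± 0.03. Clpx, a mitochondrial unfoldase that acts on ALA synthase, gave -0.06 ± 0.03 and Urod, a decarboxylase of the pathway, 0.05 ± 0.03.

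Genes that clear heme and free hemoglobin, 10 of 11 tested, gave 0 calls in any contrast. Cd163, the hemoglobin scavenger receptor of macrophages, had a mean of 61.5 and a log2 diet difference of 0.29 ± 0.16 (SE). Lrp1, which takes up heme bound to hemopexin among many ligands, gave -0.06 ± 0.03, and Slc48a1, a heme transporter, 0.01 ± 0.02. The 10 genes of iron handling, all tested, also gave 0 calls. The ferritin chains Fth1 and Ftl1 had diet differences of 0.01 ± 0.02 and 0.08 ± 0.03, Tfrc, the transferrin receptor, -0.02 ± 0.03 and Steap3, a ferric reductase, 0.12 ± 0.07.

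Markers of other blood, vessel and meningeal cells were measured beside the globins, and their part in the globin differences was not tested. Of the neutrophil list 3 of 9 genes were tested, and the summed level of the list ran from 23.8 to 115 in WT_CD, 16.4 to 142 in KO_CD, 28.8 to 249 in WT_HFD and 21.2 to 215 in KO_HFD. For age, the log2 values were 0.99 for S100a8, 0.64 for S100a9 and 1.40 for Ngp, none called. All 3 had the sign of the globins. By limma, 2 of the 3 had an unadjusted p under 0.05, against 1663 of all 19928 tested genes. Of the platelet list 4 of 9 genes were tested, with summed levels of 205 to 296 over all groups. Pf4, a platelet chemokine also made by brain border macrophages, had a diet difference of 0.39 ± 0.22 (SE). Of the lymphocyte list 5 of 11 were tested and 0 called.

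The 15 endothelial genes were all tested, with 0 called and a median log2 diet difference of 0.03. Their summed level ran from 11087 to 12080 in WT_CD, 11242 to 12936 in KO_CD, 11159 to 13464 in WT_HFD and 11310 to 12498 in KO_HFD. The endothelial glucose transporter Slc2a1 had a diet difference of 0.00 ± 0.03 (SE), and Slco1a4, a transporter of the blood-brain barrier, 0.09 ± 0.03. The junction gene Cdh5 gave 0.19 ± 0.09. Of 10 mural-cell genes 9 were tested and 0 called. The pericyte marker Rgs5 gave 0.02 ± 0.03 and Cspg4, the proteoglycan NG2, -0.10 ± 0.03.

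The meningeal list was less even. Its summed level ran from 2243 to 7436 in WT_CD, 1969 to 10827 in KO_CD, 1922 to 13470 in WT_HFD and 2326 to 13392 in KO_HFD. For diet averaged over genotypes all 14 genes lay above 0 with a median log2 value of 0.63, and 0 were called. For age all 14 lay below 0 with a median of -0.54, the opposite sign to the globins. Col1a2, a fibroblast collagen, had a diet difference of 0.42 ± 0.21 (SE), and Slc22a6, an organic anion transporter of meningeal fibroblasts, 1.25 ± 0.56. Among 8 choroid plexus genes, all tested, and 6 of 8 pituitary genes, 0 were called. Of 12 hypothalamic genes 3 were called for diet averaged over genotypes, against 0.336% of all tested genes. Cartpt and Avp, 2 neuropeptide genes, were higher on high-fat diet (0.32 ± 0.05 and 0.34 ± 0.08) and Hcrt was lower (-0.36 ± 0.08).

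Over the 32 libraries, with group means removed, none of 16 relations between the globin mean and these 14 lists, the reads on genes and the mitochondrial share passed a permutation test after Benjamini-Hochberg adjustment. The largest was with heme synthesis, with Pearson's r of 0.391 (two-sided permutation p = 0.0275, adjusted 0.44) and Spearman's rho of 0.259 (permutation p = 0.153). Without the 2 libraries farthest from the median globin level it was 0.174. It was -0.523 within the 13 mice of 149 days and 0.581 within the 19 mice of 150 days. For 17 of the tested red-cell genes (all but Fech, which the heme synthesis list also holds) r was 0.205 (permutation p = 0.261, adjusted 0.596), for endothelium 0.156, for meninges 0.0965 and for reads on genes 0.257.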

How the data were processed

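The authors deposited log2 values of gene counts divided by size factors, with 0 listed as log2 of 0.1, per the values in the files. Build GRCm38, the aligner STAR 2.7.6a and DESeq2 1.28.1 are named, without roles, in the submitters' processing notes. How reads were counted, by strand or at several matches, is not stated; the library protocol is stranded, per the labels. Dividing by 1 read's worth gave whole reads for 100.0% of values (within 1e-06 reads).

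Gene IDs were matched to GENCODE vM21 symbols (55141 matched, 260 not). Genes with a normalized count of at least 10 in at least 7 libraries were tested with limma 3.58.1 (R 4.3.3, intensity trend, robust) on log2(normalized count + 1), which slightly understates changes of low genes, with 4 group means and Benjamini-Hochberg adjustment over all 19928 genes. "Called" means an adjusted p under 0.05. Intervals are 95%. Permutation tests drew 100000 resamples. The test was checked on simulated data. The members, the gene lists and the contrasts were chosen with earlier results of these data known. Genes named outside the members are all listed globins, in each list up to 4 called or else up to 2 highest by mean and 2 of smallest p for diet, and the 12 most like the globin mean; a few others were named after their values were seen. Of the 181 listed genes, 4 symbols did not match; 1 further red-cell gene is not reported here. P-values measure the spread between mice. Alternatives were another pseudocount, no filter, total-read scaling, limma-voom, no trend, age, replicate and number blocks, single ages and leaving out libraries.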

Additional observations from a re-analysis of the deposited data

Results flagged for a closer look

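KO_HFD replicate 4 stood apart from the other 8 mice of its group in all 5 genes, by Dixon's test of the gap between the highest mouse and the next. Its normalized counts were 12132 for Hba-a1, 6004 for Hba-a2, 13297 for Hbb-bs and 3853 for Hbb-bt, while the next highest KO_HFD mouse held 7522, 3777, 8274 and 2372. Its Alas2 count was 170, with the next at 93.5. In WT_HFD, replicate 2 stood apart in Alas2, with 183 against a next highest of 109. Its globin counts were the highest of all libraries but were not set apart by that test, because WT_HFD replicate 6 lay between it and the rest. The test was run on 28 sets of values and marked 6. Chance marks about 1 in 20, and the 5 genes of 1 library move together, so these 6 marks are not independent.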

How the results depend on the processing

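The 4 members called for diet averaged over genotypes became 0 with no filter, with age as a covariate, with the replicate block, with blocks of 8 by label number, and in mice of 150 days only, and 2 with limma-voom; leaving out 1 library gave 0 to 4. With no filter, either block or limma-voom the globin log2 values stayed at 0.59 to 0.62, while with age they were 0.32 to 0.33 and at 150 days only 0.31 to 0.34; the cause was not tested. Replicate numbers did not pair the mice (r over 0.1 in 8 of 45 pairs, median 0.005), so the replicate block gives only this count and 3 genes for diet in wild types.

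Of all genes, 67 were called for diet averaged, against 43 with no filter, 12 with age, 0 at 150 days only and 41 to 87 without 1 library. Diet in wild types called 5, against 1 with age, 3 with no trend and 1 to 7 without 1 library. Diet in knockouts called 7, against 4 with total-read scaling, 3 with no trend, 2 at 150 days only and 3 to 10 without 1 library. Age called 0, against 4 in KO_CD only and 0 to 2 without 1 library. The genotype contrasts called 1 each, against 2 on control diet with no filter, and 2 on high-fat diet and averaged with no trend.

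Genotype values changed sign around 0, none called. On control diet they became -0.032, -0.027, -0.031, -0.062 and -0.076 with age, and -0.093, -0.091, -0.11, -0.15 and -0.075 at 149 days only (Hba-a1, Hba-a2, Hbb-bs, Hbb-bt, Alas2), and -0.0010 for Alas2 with total-read scaling. Averaged over diets with age the globins became -0.043, -0.042, -0.028 and -0.045. On high-fat diet without the 2 highest libraries, an alternative chosen after seeing the data, Hbb-bs was 0.014 and Hbb-bt 0.0049. The interaction with age was 0.0049 for Hbb-bs and 0.034 for Hbb-bt. Without 1 library the control-diet values ran from -0.012 to 0.16 (Hba-a1), -0.0062 to 0.16 (Hba-a2), -0.0099 to 0.16 (Hbb-bs), -0.042 to 0.13 (Hbb-bt) and -0.055 to 0.064 (Alas2). The high-fat values ran from -0.15 to 0.086, -0.15 to 0.084, -0.12 to 0.11 and -0.13 to 0.11 for the globins, the averaged values from -0.043 to 0.076, -0.041 to 0.077, -0.022 to 0.096 and -0.041 to 0.077, and the interaction from -0.22 to 0.020, -0.22 to 0.014, -0.20 to 0.038 and -0.17 to 0.065. Counting error was 11.6% for Alas2 (54 to 186 reads a library) and 1.30% to 2.44% for the globins, against 35.8% to 38.2% between libraries.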
